A study of Neotoma lepida with 16 samples.

Results

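Livers of desert woodrats (Neotoma lepida) were compared between animals that ate the toxic shrub of their own range: 4 Mojave woodrats fed creosote bush and 4 Great Basin woodrats fed juniper. These 8 animals were taken from the 16 of the study by population and diet alone, with no measured value used. The 8 others received the opposite plant, 4 Great Basin woodrats on creosote and 4 Mojave woodrats on juniper, and serve here as the exchanged-diet comparison. All 16 were caught in the wild, spent 3 months in captivity on rabbit chow and then ate chow holding a rising amount of 1 plant over 5 days. No group stayed on plain chow, so a gene that was higher in Mojave creosote can equally be called lower in Great Basin juniper. Population and plant cannot be told apart within the native-diet comparison. The Mojave creosote animals were all male, while each other group held 2 males and 2 females, and the comparison was adjusted for sex through the other groups.

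Creosote bush is coated with a resin rich in phenolics, and juniper foliage is rich in terpenes. A herbivore's liver disposes of such compounds in steps. Cytochrome P450 enzymes oxidise them with electrons passed on by P450 reductase and cytochrome b5, and transferases then attach sugars, sulfate or glutathione so that the products can be excreted. The same organ makes and burns fat, releases glucose, breaks down amino acids and secretes most plasma proteins, and the proteasome of its cells degrades proteins marked with ubiquitin.

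Each liver was hybridised to its own array with rat probes against a common pool of RNA from all 16 animals. Values are log2 ratios of 1 animal over that pool, so that 0 is a signal equal to that of the pool and 1 unit is a doubling. A value of 0 need not be the average of the 16 animals at a given probe. The group means for Gnmt, for example, were all above 0. They were 1.33 in Great Basin creosote, 0.2 in Great Basin juniper, 1.43 in Mojave creosote and 0.12 in Mojave juniper. Probes well above background made up 65.0% ± 9.44 (SD, n = 4) on the arrays of Mojave creosote animals. The share was 65.2% ± 11.2 (SD, n = 4) on those of Great Basin juniper animals. The arrays sat on 4 slides, with 1 animal of each group per slide. Slide 1, which held Mojave creosote 3 and Great Basin juniper 3, was dimmest at 49.2% on average. Each group kept the same position on every slide, so position and group cannot be told apart. The labels do not say whether animals of a group shared a capture site or litter, and p-values measure only the spread between these animals. In whole liver, fewer cells of a type and less RNA per cell cannot be told apart.

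Of 26472 genes tested, 1356 differed between Mojave creosote and Great Basin juniper by limma at an adjusted p under 0.05, which is 5.12%. Of these, 574 (2.17%) were higher and 782 (2.95%) lower in Mojave creosote. Among the called genes 755 had a gene symbol, 294 higher and 461 lower, and the rest carried only a tag name or a predicted locus name. These 755 are 7.15% of the 10560 tested genes with a symbol. The gene lists below hold named genes, so 7.15% is the nearer share to set beside their counts. A difference of at least 2-fold was reached by 184 called genes, 103 higher and 81 lower. In 1275 of the 1356 called genes the animals of 1 group lay entirely above those of the other, as in 3361 (12.7%) of all genes tested. The calls were made on the same animals, so this is a description and adds no support. Animals without a value at a probe were not counted. The count was 1369 with slide as a block, 518 in male animals only and 390 without the 4 arrays of slide 1. When arrays were centred on their median in place of loess, 389 genes were higher and 2155 lower, so the balance of directions depends on the normalisation.

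The largest differences among genes with a symbol were for Bex4 and for Il1r2, which encodes the decoy receptor that binds interleukin-1 without signalling. Il1r2 stood at 0.79, 1.18, 1.83 and 0.28 in Mojave creosote animals 1 to 4 and at -1.98, -1.74, -2.45 and -2.24 in Great Basin juniper. Every Mojave creosote animal was above the pool and every Great Basin juniper animal far below it. The difference was 3.18 ± 0.36 (log2, SE, n = 4 and 4), a 9.06-fold higher level (limma adjusted p = 2.03e-04), and between 2.52 and 4.28 within the 4 slides. Bex4 stood at 2.67, 1.73, 1.17 and -0.05 in Mojave creosote and at -1.93, -1.97, -2.01 and -2.18 in Great Basin juniper. The juniper animals lay close together, and the creosote animals were spread over more than 2 log2 units without reaching them. The sex-adjusted difference of Bex4 was 3.81 ± 0.60 (limma adjusted p = 0.00216). Fst, which encodes follistatin, a secreted inhibitor of activins, differed by 2.60 ± 0.52 (limma adjusted p = 0.00853), with creosote animals from -0.21 to 2.34 and juniper animals from -1.47 to -1.18. Its second probe gave 1.68 ± 0.39. In males only, the call on Fst was lost (limma adjusted p = 0.107).

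Among the next genes, several make fatty acids or glucose. Elovl6, an elongase of saturated and monounsaturated fatty acids, stood at 2.12, 1.30, 0.67 and 1.05 in Mojave creosote and at -1.24, -1.63, -1.27 and -1.37 in Great Basin juniper. Scd2, a stearoyl-CoA desaturase, stood at 1.11, 1.51, 1.41 and 1.28 against -0.75, -0.64, -0.62 and -0.97. G6pc, the catalytic subunit of glucose-6-phosphatase that releases free glucose, stood at 1.19, 0.93, 1.67 and 1.19 against -0.94, -0.80, -1.20 and -0.97. For all of these genes each creosote animal was above each juniper animal by more than 1 log2 unit. The differences were 2.52 ± 0.29 for Elovl6, 2.05 ± 0.16 for Scd2 and 2.20 ± 0.23 for G6pc (limma adjusted p = 2.09e-04, 1.77e-05 and 1.28e-04). Probes of the same gene did not always move alike. A second Elovl6 probe, above background on 5 of 16 arrays, gave -0.04 ± 0.08. Further Scd2 probes gave 2.31 ± 0.56 and -0.10 ± 0.06, and a second G6pc probe gave 0.84 ± 0.17.

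The other genes among the 12 largest higher differences had varied roles. Acmsd, which diverts tryptophan breakdown away from NAD synthesis, differed by 2.12 ± 0.28 and Atp2b2, a calcium pump of the cell membrane, by 2.11 ± 0.30 (limma adjusted p = 8.28e-04 and 0.00116). Amy2, an amylase, was higher by 1.91 ± 0.27 and Ddit4, an inhibitor of the growth kinase mTOR, by 1.89 ± 0.33 (limma adjusted p = 0.00104 and 0.00378). Mug2, a murinoglobulin of plasma that traps proteases, differed by 2.34 ± 0.47 and Myc, the growth-promoting transcription factor, by 1.97 ± 0.43 (limma adjusted p = 0.00944 and 0.0163). Myc was scattered, at 1.35, -0.52, 0.59 and -0.69 in Mojave creosote and at -1.13, -1.09, -1.62 and -2.24 in Great Basin juniper, so that the groups were separate with a narrow gap. Leaving out Great Basin juniper 4 ended the calls on Mug2 and Myc (limma adjusted p = 0.0581 and 0.0817), and leaving out slide 1 ended those on Mug2, Myc and Ddit4 (limma adjusted p = 0.0519, 0.181 and 0.102). A second Mug2 probe, above background on 14 of 16 arrays, gave 0.13 ± 0.15, and a second Amy2 probe, above background on 8, gave 0.72 ± 0.56. A second Atp2b2 probe gave 1.72 ± 0.26. Myc was not called in males only either (limma adjusted p = 0.0819). The gene with the smallest p among those higher was Baz2a, a subunit of a chromatin-remodelling complex, at 0.94 to 1.08 in Mojave creosote and -0.68 to -0.32 in Great Basin juniper, a difference of 1.45 ± 0.11 (limma adjusted p = 1.62e-05).

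**Figure D1:**
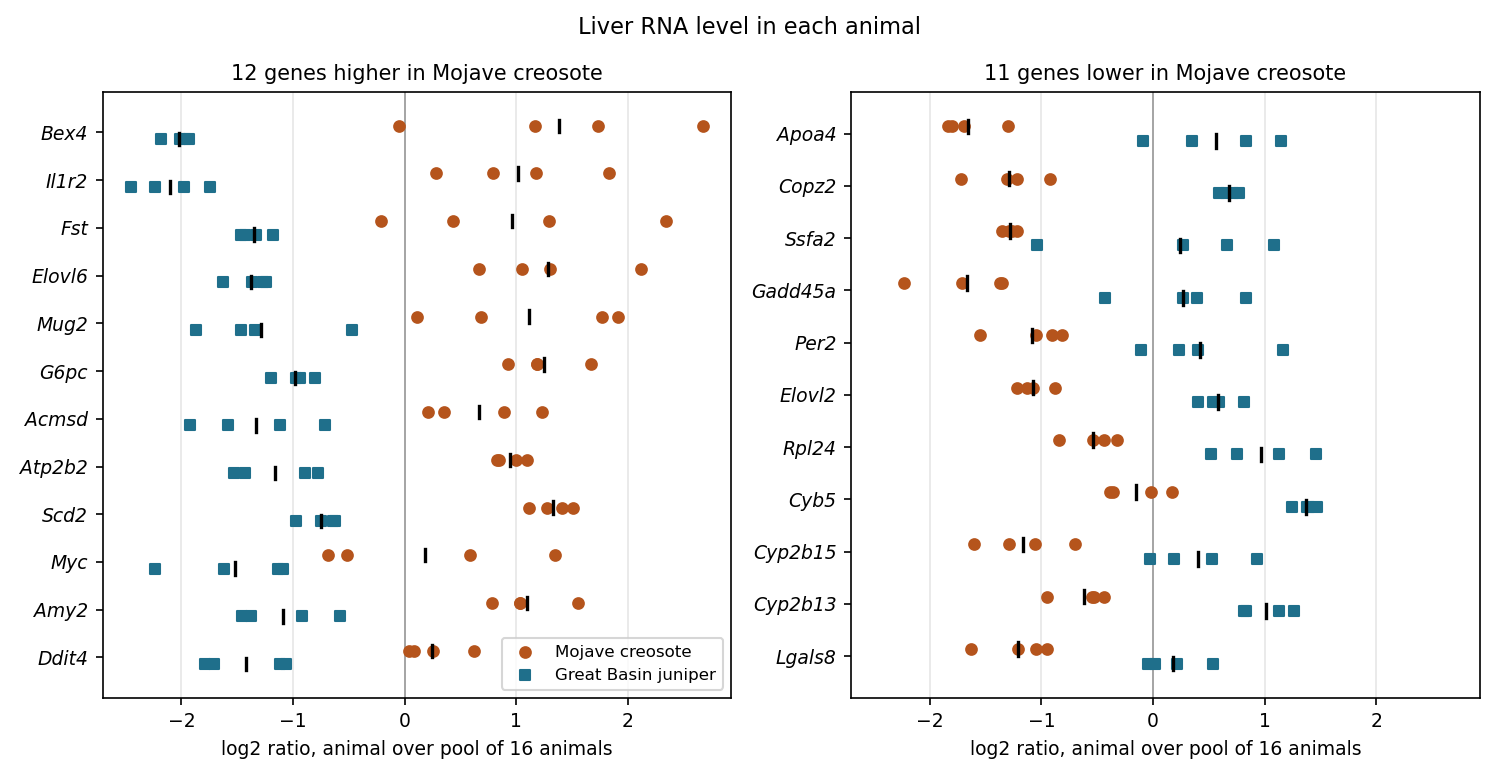
Liver RNA of the 12 genes with the largest higher (left) and 11 of the 12 with the largest lower (right) difference in Mojave creosote against Great Basin juniper; the horizontal axis is the log2 ratio of an animal over the pool of 16 animals, each circle or square is 1 animal and each black bar a group mean of 4. No creosote animal overlaps a juniper animal in any of these genes, which the rule of choice required, and the gap is narrowest for Ssfa2, where 1 juniper animal lies at -1.04 beside creosote animals of -1.22 to -1.35.

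At the lower end, Apoa4, an apolipoprotein of triglyceride-rich particles, stood at -1.80, -1.30, -1.69 and -1.84 in Mojave creosote and at 0.35, -0.09, 1.15 and 0.83 in Great Basin juniper. The difference was -2.43 ± 0.24 (limma adjusted p = 9.53e-05), a 5.40-fold lower level, and ran from -2.83 to -1.21 within slides. Asf1a, a histone chaperone, had the smallest p of all genes with a symbol in either direction. It stood at -1.47, -1.46, -1.27 and -1.14 in Mojave creosote and at 0.07, -0.13, 0.07 and -0.03 in Great Basin juniper. The juniper animals were thus close to the signal of the pool and the creosote animals well below it. Asf1a differed by -1.37 ± 0.09 (limma adjusted p = 3.26e-06). Its second probe gave -1.12 ± 0.09.

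Elovl2, an elongase of polyunsaturated fatty acids, was lower by -1.65 ± 0.16, opposite to Elovl6 (limma adjusted p = 8.64e-05). Its animals stood at -1.22 to -0.88 on creosote and at 0.40 to 0.81 on juniper, and a second Elovl2 probe gave -0.41 ± 0.12. Gadd45a, a gene known to respond to DNA damage and other stress, was lower by -1.75 ± 0.24, and Lgals8, a sugar-binding galectin, by -1.47 ± 0.16 (limma adjusted p = 8.36e-04 and 1.35e-04). Copz2, a coatomer subunit of transport vesicles, was lower by -1.98 ± 0.23 at its brightest probe (limma adjusted p = 2.05e-04) and differed by -0.06 ± 0.10 at the other, so the gene's call rests on 1 probe. Per2, a repressor of the circadian clock, was lower by -1.66 ± 0.39 (limma adjusted p = 0.0222). Leaving out Great Basin juniper 3 ended the call on Per2 (limma adjusted p = 0.0595), as did leaving out slide 1 (0.0871), males only (0.0558), the authors' ratios (0.053) or the Cy5 channel alone (0.0684). Ssfa2 differed by -1.83 ± 0.47 (limma adjusted p = 0.0359). Its call was lost without any 1 of 10 animals (Great Basin creosote 1, Great Basin juniper 1, 3 and 4, all 4 of Mojave creosote, and Mojave juniper 1 and 3), with limma adjusted p from 0.0502 to 0.117. Further Ssfa2 probes gave -0.26 ± 0.16 and -0.54 ± 0.12.

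P450 genes were mostly lower or not called in Mojave creosote. Of 33 tested P450s of families 1 to 3, out of 37 on the array, 10 were lower and 1 was higher, with a list median of -0.15 against -0.01 over all genes. The higher one, named after its value was seen, was Cyp2e1 at 0.47 ± 0.12 (limma adjusted p = 0.04), a call that ended without any 1 of 11 animals. The lower ones were spread over the 2b, 2c, 2d and 3a subfamilies, whose members oxidise drugs, steroids and plant compounds. Cyp3a3 stood at -0.86, -1.50, -1.36 and -1.24 in Mojave creosote and at 0.16, 0.17, -0.25 and -0.08 in Great Basin juniper. Cyp2b13 stood at -0.95, -0.44, -0.55 and -0.53 against 1.26, 0.83, 1.13 and 0.81, with the juniper animals all above the pool. Cyp2b15 stood at -1.60, -0.70, -1.29 and -1.06 against 0.19, 0.93, -0.03 and 0.53. In all of these the groups were apart, and the differences were -1.24 ± 0.19 for Cyp3a3, -1.55 ± 0.30 for Cyp2b13 and -1.55 ± 0.30 for Cyp2b15 (limma adjusted p = 0.00166, 0.00734 and 0.00811). Cyp3a11 was lower by -0.51 ± 0.09 and Cyp2c7 by -1.17 ± 0.21 (limma adjusted p = 0.00305 and 0.00644). Rat probes of closely related P450s may share woodrat transcripts, and probes of 1 gene disagreed in part. A second Cyp2b15 probe gave 0.06 ± 0.15 and a second Cyp2b13 probe -0.25 ± 0.10, while further Cyp2c7 probes gave -1.23 ± 0.27 and -0.07 ± 0.08. Without slide 1 the list held 1 lower call, and without Great Basin juniper 3 it held 6. Of the 8 tested P450s of family 4, which hydroxylate fatty acids, none was called by limma, 1 at an unadjusted p under 0.05.

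Some of the partners that P450s need were lower as well. Of 17 tested genes for haem synthesis and P450 electron partners 5 were lower and none higher, with a median of -0.32, and the median of each slide lay between -0.38 and -0.18. Cyb5, cytochrome b5, stood at -0.02, -0.36, -0.39 and 0.17 in Mojave creosote and at 1.38, 1.47, 1.40 and 1.24 in Great Basin juniper. All 4 juniper spots were saturated, so the fitted difference of -1.56 ± 0.15 (limma adjusted p = 8.64e-05) is not read as a fold. In the red signal rebuilt after normalisation of both channels, the juniper level was 1.5-fold higher, a value that saturation also limits. On the Cy5 channel alone Cyb5 was not called (limma adjusted p = 0.113). Por, the P450 reductase, stood at -1.50, -0.69, -1.01 and -1.05 against -0.09, 0.46, 0.07 and 0.22, a difference of -1.16 ± 0.24 (limma adjusted p = 0.0101). Fech, which inserts iron into haem, was lower by -0.68 ± 0.10 (limma adjusted p = 0.00125). A further gene, outside the naming rule and named after its value was seen, was Alas1, the rate-limiting enzyme of haem synthesis, at -1.43 ± 0.38 (limma adjusted p = 0.041). Por was no longer called without Great Basin juniper 4 (limma adjusted p = 0.05). The list held 3 lower calls without Great Basin juniper 3 or Great Basin juniper 4, and 2 without slide 1.

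Conjugating enzymes showed no common direction. Among 20 glutathione S-transferases 2 were higher and 1 lower. Gstm2 stood at 0.06, -0.22, 1.07 and 1.45 in Mojave creosote and at -0.85, -1.08, -0.80 and -0.95 in Great Basin juniper, a difference of 1.62 ± 0.32, and Gsto1 was lower by -0.94 ± 0.17 (limma adjusted p = 0.00796 and 0.00405). Both calls ended without slide 1 (limma adjusted p = 0.0694 for Gstm2 and 0.0568 for Gsto1), and Gstm2 was not called in males only (limma adjusted p = 0.128). The list held 1 higher call without Great Basin juniper 3 or 4 or Mojave creosote 1 or 3. Of 11 UDP-glucuronosyltransferases 2 were lower and none higher, Ugt1a1 at -0.53 ± 0.13 and Ugt1a2 at -0.75 ± 0.20 (limma adjusted p = 0.0377 and 0.0472). A second Ugt1a2 probe gave 0.05 ± 0.07. Neither was called when Great Basin juniper 4, Mojave creosote 1 or 2, or Mojave juniper 1, 3 or 4 was left out. Of 11 sulfotransferases 1 was higher, a call that ended without Great Basin juniper 1 or 4, Mojave creosote 1, 2 or 3, or Mojave juniper 1 or 3. Among 34 carbonyl-reducing and aldehyde-oxidising enzymes 2 were higher, among them Adhfe1, an alcohol dehydrogenase, by 0.90 ± 0.13 (limma adjusted p = 0.00118). The other was Dcxr, a carbonyl reductase of sugars, at 0.40 ± 0.11 (limma adjusted p = 0.04). The call on Dcxr was lost without Great Basin creosote 1 or 2, Great Basin juniper 1, 2 or 4, Mojave creosote 2 or 4, or Mojave juniper 1, 2 or 4 (limma adjusted p from 0.0504 to 0.151), and without slide 1 (0.0509). No carboxylesterase or epoxide hydrolase of 7 was called by limma, and 2 had an unadjusted p under 0.05. Of 45 drug and bile salt transporters 2 were lower and none higher, and neither call held without Great Basin juniper 3 or Great Basin juniper 4.

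Receptors and stress regulators of this system moved in few cases. Of 24 xenobiotic and nuclear receptors 1 was higher and 1 lower. Nr1i3, the constitutive androstane receptor that induces Cyp2b genes, was higher in Mojave creosote, at 0.30, 0.49, 0.38 and 0.35 against -0.09, -0.30, -0.36 and -0.44, by 0.69 ± 0.11 (limma adjusted p = 0.00305). A second Nr1i3 probe gave 0.10 ± 0.11, and without slide 1 the call on Nr1i3 ended (limma adjusted p = 0.0729). Pparg, a regulator of fat storage, was lower by -0.86 ± 0.13 (limma adjusted p = 0.00133). Of 23 tested NRF2 targets, the genes of the oxidant response, 2 were lower and none higher. These were Gsr, glutathione reductase, at -0.86 ± 0.15, and Txn1, thioredoxin, at -1.07 ± 0.19 with 2 of 8 values left out as outlier spots (limma adjusted p = 0.00339 and 0.00603). Gsr was not called in males only (limma adjusted p = 0.0691), nor Txn1 without slide 1 (limma adjusted p = 0.125). The median of the NRF2 list was -0.12.

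The proteasome was the list with the largest share of called genes. Of 40 tested subunits, out of 41 on the array, 26 were lower in Mojave creosote and none higher, with a median of -0.55. The mean over the 40 subunits was -0.45, -0.38, -0.55 and -0.21 in Mojave creosote animals 1 to 4 and 0.02, 0.08, 0.09 and 0.08 in Great Basin juniper, so all creosote animals were below all juniper animals. The lower genes covered both the core and the cap of the particle. They were 6 of 8 alpha subunits and 6 of 9 beta subunits of the 20S core, which cuts proteins. In the 19S cap, which unfolds and admits them, they were 4 of 6 ATPases and 9 of 13 other subunits. Outside core and cap 1 of 4 members was lower. The medians were -0.58, -0.51, -0.50, -0.70 and -0.14 in the same order. The members outside core and cap that were not called were the activators Psme1, Psme2 and Psme3. At an unadjusted p under 0.05, 30 subunits were lower and none higher. The beta subunits not called were Psmb7 and the immunoproteasome subunits Psmb8 and Psmb9.

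Psmd2, a scaffold subunit of the cap, stood at -1.03, -0.78, -0.90 and -0.71 in Mojave creosote and at -0.20, -0.06, -0.10 and 0.04 in Great Basin juniper. Psma1, of the core, stood at -0.86, -0.89, -0.85 and -0.73 against 0.07, -0.03, 0.06 and 0.43. Psmd13, of the cap, stood at -1.25, -1.10 and -1.14 in the 3 creosote animals with a value against 0.08, 0.12, 0.04 and 0.36. Creosote animals lay close together here, about 1 log2 unit below the juniper animals. The differences were -0.81 ± 0.09 for Psmd2, -1.03 ± 0.12 for Psma1 and -1.40 ± 0.16 for Psmd13 (limma adjusted p = 1.27e-04, 1.84e-04 and 5.28e-04). Psma6 differed by -0.91 ± 0.10 (limma adjusted p = 1.27e-04) at its brightest probe and by 0.01 ± 0.07 at a second one. The median of the proteasome subunits was between -0.64 and -0.43 on each slide, and 0 subunits were higher under every alternative. Between 19 and 24 were lower when any 1 animal was left out, and 11 without slide 1, where 4 fewer arrays entered the fit.

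**Figure D2:**
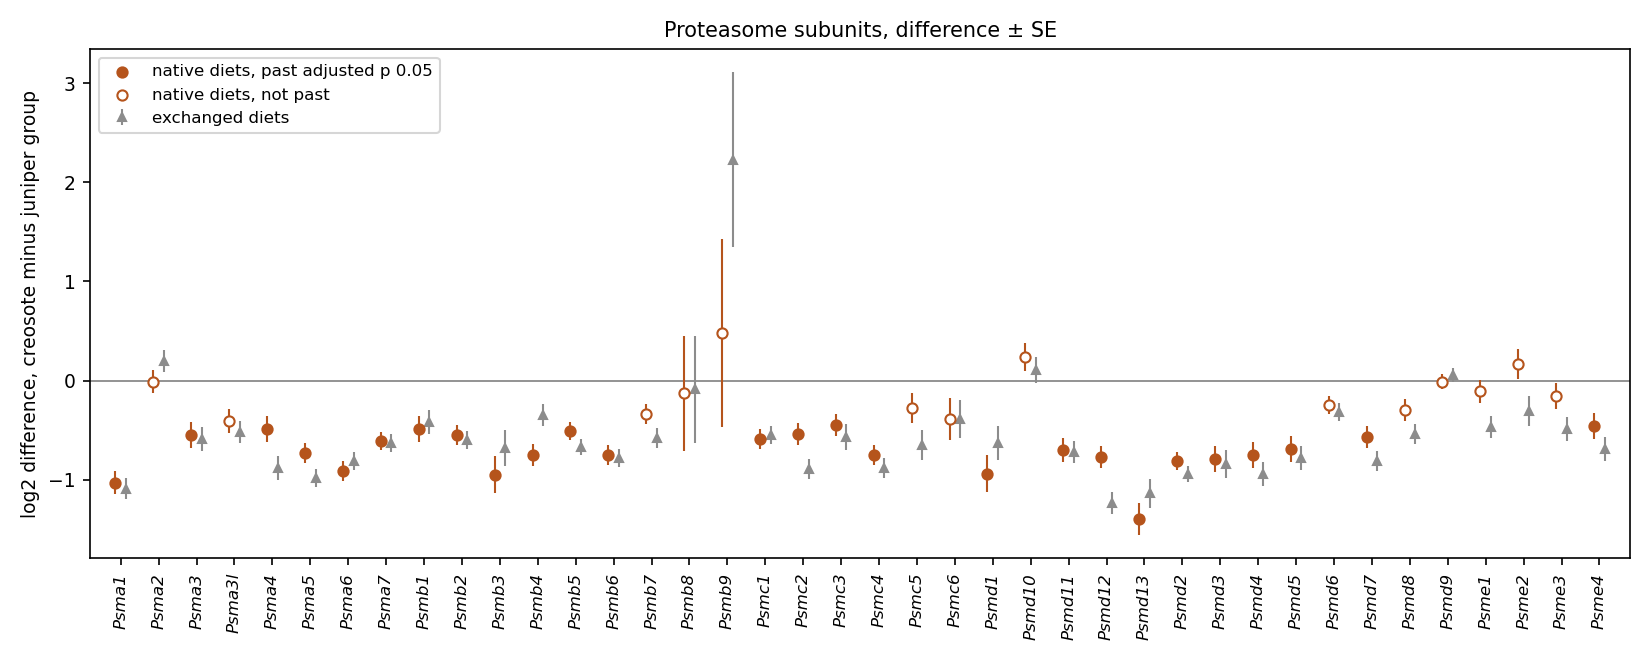
Differences of the 40 proteasome subunits with their standard errors, in log2 units: circles show Mojave creosote minus Great Basin juniper, filled where the limma adjusted p was under 0.05, and grey triangles show Great Basin creosote minus Mojave juniper. Of the 40 native differences 3 lie above 0, and Psmd13 lies lowest at -1.40.

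Related lists moved less. Of 26 ubiquitin conjugating enzymes, which charge ubiquitin for transfer, 5 were lower and none higher, led by Ube2d2 at -0.44 ± 0.09 (limma adjusted p = 0.00791). By limma none was called with the authors' own ratios or in males only. There was 1 without slide 1, 2 without Great Basin juniper 4, and 3 without Great Basin juniper 1 or 3 or Mojave creosote 1. Of 29 heat shock proteins and chaperones 5 were lower and none higher, with a median of -0.24. Hspd1, the mitochondrial chaperonin, was at -0.87, -1.45, -1.11 and -1.10 in Mojave creosote and at 0.06, 0.13, -0.29 and -0.18 in Great Basin juniper, a difference of -0.96 ± 0.15. Hspb1, a small heat shock protein, differed by -1.34 ± 0.26 (limma adjusted p = 0.00214 for Hspd1 and 0.00781 for Hspb1). Further Hspd1 probes gave -0.63 ± 0.10 and -0.22 ± 0.07. The heat shock count fell to 2 without Great Basin juniper 3, to 3 without Great Basin juniper 1 or 4, Mojave creosote 2 or 3 or Mojave juniper 3, and to 1 without slide 1, and was 8 without Great Basin creosote 4.

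Lipogenesis genes moved in both directions. Of 23 tested, 5 were higher and 4 lower. Beside Elovl6 and Scd2, Acaca, the acetyl-CoA carboxylase that commits carbon to fat, was higher at 0.82, 1.08, -0.06 and 0.61 against -0.59, -0.46, -0.46 and -0.96. Its difference was 1.31 ± 0.19 (limma adjusted p = 0.00138), and a second Acaca probe gave -0.02 ± 0.11. Srebf1, the transcription factor that induces fatty acid synthesis genes, is outside the naming rule and was named after its value was seen, at 1.14 ± 0.21 (limma adjusted p = 0.00478). The desaturases Fads1 and Fads2, which act on polyunsaturated fatty acids as Elovl2 does and were also named after their values were seen, were lower by -0.75 ± 0.17 and -0.71 ± 0.17 (limma adjusted p = 0.0212 and 0.0232). At least 5 genes of the list were higher whichever animal was left out and without slide 1. The 4 lower ones were 2 without Great Basin juniper 3, Great Basin juniper 4 or Mojave creosote 1, and 1 without slide 1 or in males only.

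Of 25 tested genes for fatty acid oxidation and ketone bodies 5 were lower and none higher, with a median of -0.25. At an unadjusted p under 0.05 limma gave 12 lower and 1 higher. Dci, an isomerase of unsaturated fatty acid oxidation, stood at -0.86, -0.66, -0.57 and -0.39 in Mojave creosote and at 0.19, 0.31, 0.37 and 0.20 in Great Basin juniper. Fgf21, a fasting hormone secreted by the liver, stood at -0.48, -0.37, -0.45 and -0.44 against 0.52, 0.21, 0.45 and 0.44. Slc25a20, the carnitine carrier that brings fatty acids into mitochondria, stood at -0.88, -0.44, -0.32 and -0.38 against 0.14, 0.02, 0.29 and 0.31. All creosote animals were below and all juniper animals above the pool for these genes. The differences were -0.95 ± 0.13 for Dci, -0.92 ± 0.14 for Fgf21 and -0.79 ± 0.13 for Slc25a20 (limma adjusted p = 9.70e-04, 0.00176 and 0.00303), and Ech1, another isomerase, differed by -0.89 ± 0.15 (limma adjusted p = 0.00389), a call that males only did not give (0.0715). At least 4 genes of the list were lower whichever animal was left out and without slide 1, and 3 in males only. Among 17 apolipoproteins and lipoprotein assembly genes 2 were higher and 3 lower. Beside Apoa4, Lipc, hepatic lipase, was higher by 0.88 ± 0.17 and Apoa5, which promotes triglyceride clearance, by 0.64 ± 0.13 (limma adjusted p = 0.00829 and 0.00814). Leaving out slide 1 ended the calls on Apoa5 and Lipc (limma adjusted p = 0.077 and 0.0581), as did median centring (limma adjusted p = 0.29 and 0.064). The 3 lower calls of that list were 1 without Great Basin juniper 3, Mojave creosote 1 or Mojave creosote 2. Of 23 genes for cholesterol synthesis and uptake limma called none, with 3 at an unadjusted p under 0.05.

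Of 28 tested genes of the urea cycle and amino acid catabolism 8 were higher and none lower, with a median of 0.17. At an unadjusted p under 0.05 limma gave 12 higher and 0 lower. Sds, serine dehydratase, which turns serine into pyruvate, stood at 1.35, 0.56, 1.18 and 1.11 in Mojave creosote and at -0.92, -0.50, -0.60 and -0.38 in Great Basin juniper. Hal, which starts histidine breakdown, stood at 0.32, 0.13, 0.71 and 0.64 against -0.66, -0.78, -0.65 and -0.38. Tat, tyrosine aminotransferase, stood at 0.65, 0.40, -0.06 and -0.19 against -0.85, -0.81, -1.32 and -0.74. The groups were apart in each of these genes, and the juniper animals were all below the pool. The differences were 1.53 ± 0.18 for Sds, 1.11 ± 0.16 for Hal and 1.34 ± 0.20 for Tat (limma adjusted p = 3.35e-04, 0.00117 and 0.00168). The list's count was 5 without Great Basin juniper 3 or Great Basin juniper 4 and 4 without slide 1, in males only, with median centring or on the Cy5 channel alone.

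Of 22 methionine and one-carbon enzymes 4 were higher and none lower. Gnmt, which uses up S-adenosylmethionine by methylating glycine, stood at 1.36, 1.31, 1.54 and 1.53 in Mojave creosote and at 0.16, 0.27 and 0.18 in the 3 juniper animals with a value, a difference of 1.20 ± 0.12 (limma adjusted p = 1.22e-04). Cth, which makes cysteine from cystathionine, was higher by 1.16 ± 0.21 and Ahcy, which splits S-adenosylhomocysteine, by 0.59 ± 0.12 (limma adjusted p = 0.00485 and 0.00841). Gcsh, of the glycine cleavage system, was higher by 1.07 ± 0.09 (limma adjusted p = 3.64e-05) at its brightest probe and differed by -0.12 ± 0.22 at the other, and the mean of both was not called (limma adjusted p = 0.0506). Gnmt spots were saturated on 3 of 4 creosote arrays, and on the Cy5 channel alone Gnmt was not called (limma adjusted p = 0.198). Cth and Ahcy were not called without slide 1 (limma adjusted p = 0.0894 and 0.0518) or on the Cy5 channel alone (0.0852 and 0.24), and Ahcy not with median centring (0.287) or in males only (0.0728). With median centring the list held 3 higher and 2 lower calls.

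Among 19 genes of gluconeogenesis and glycogen 3 were higher and 2 lower. Beside G6pc and Tat, Ppp1r3c, a glycogen-targeting subunit of a phosphatase, was higher by 1.24 ± 0.21, with a second probe at 0.27 ± 0.13. Gys2, the liver glycogen synthase, was lower by -1.30 ± 0.23 (limma adjusted p = 0.00366 for Ppp1r3c and 0.00395 for Gys2). Gys2 overlapped between the groups, at -0.89, -0.83, 0.01 and -0.89 in Mojave creosote and -0.05, 0.62, 0.63 and 0.69 in Great Basin juniper, and its second probe gave -0.09 ± 0.37. Averaging the probes ended the call on Gys2 (limma adjusted p = 0.108).

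Plasma protein genes were higher where they were called. Of 26 tested acute phase and plasma proteins 5 were higher and none lower, with a median of 0.16. Alb, albumin, stood at 1.44, 0.77, 1.01 and 1.80 in Mojave creosote and at -0.75, -0.95, -0.57 and -0.81 in Great Basin juniper, a difference of 1.86 ± 0.31 (limma adjusted p = 0.00303). Its further probes gave 0.87 ± 0.22 and 0.04 ± 0.08, and on the Cy5 channel alone the call on Alb was lost (limma adjusted p = 0.219). Of 32 complement and coagulation genes 2 were higher and none lower, with C5 at 0.91 ± 0.14 (limma adjusted p = 0.00194) and at 0.08 ± 0.16 and 0.36 ± 0.11 in its further probes. The other was Mbl1, a mannose-binding lectin, at 1.12 ± 0.29 (limma adjusted p = 0.0404). The call on Mbl1 was lost without Great Basin creosote 1 or 2, Great Basin juniper 1, 3 or 4, or Mojave creosote 1, 2 or 4 (limma adjusted p from 0.0502 to 0.17), and without slide 1 (0.12). The complement count was 4 without Great Basin creosote 3 or Great Basin juniper 2. The plasma protein count was 1 without Great Basin juniper 4, 2 without Great Basin juniper 3, Mojave creosote 2 or Mojave creosote 4, and 3 without Great Basin juniper 1 or Mojave juniper 1. It was 1 without slide 1. Some hepatocyte markers moved with these genes and with those of amino acid breakdown: 5 of 17 were higher and none lower, with a median of 0.49, and their mean lay between 0.38 and 0.52 in Mojave creosote animals and between -0.16 and 0.07 in Great Basin juniper animals. The marker count was 2 without Great Basin juniper 3 or 4, without slide 1, in males only or with the authors' ratios, 3 without Mojave creosote 1 or 4 or with median centring, and 1 on the Cy5 channel alone. The 5 called markers (Alb, Ambp, Cps1, Tat and Tdo2) also belong to the lists above, and the part of hepatocyte content in those results was not tested.

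**Figure D3:**
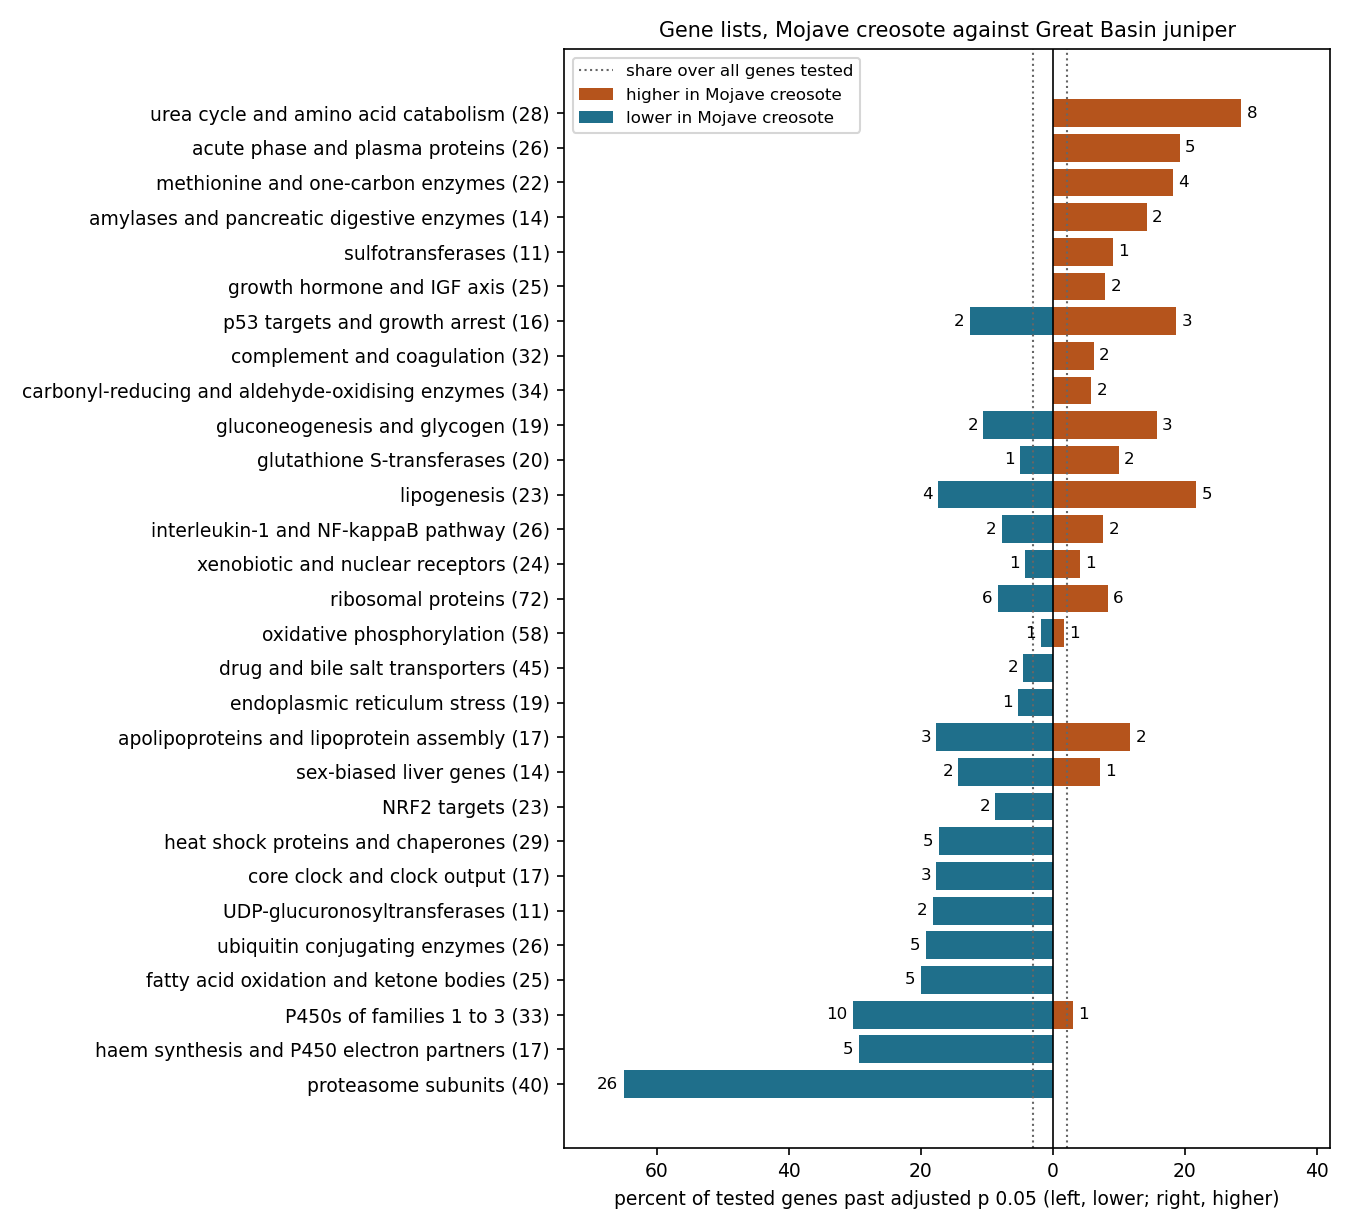
Gene lists with at least 1 called gene, without the cell type marker lists: bars to the right give the percent of each list's tested genes (their number in parentheses) that were higher in Mojave creosote than in Great Basin juniper by limma at an adjusted p under 0.05, bars to the left the percent that were lower, with the number of genes at the end of each bar. Dotted lines mark the shares over all 26472 genes, 2.17% higher and 2.95% lower. Of the 10560 genes with a symbol, 7.15% were called in either direction. Below that share were drug and bile salt transporters (4.44%), carbonyl-reducing and aldehyde-oxidising enzymes (5.88%) and complement and coagulation (6.25%). Endoplasmic reticulum stress (5.26%) and oxidative phosphorylation (3.45%) were below it too. The proteasome has the longest bar to the left with 26 genes, and the urea cycle and amino acid catabolism have 8 genes to the right and none to the left.

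Other cell types showed few differences. Of 14 stellate cell and fibroblast markers 2 were higher, though neither without Great Basin juniper 1, 3 or 4 or Mojave creosote 4, and the mean of the list lay between 0.04 and 0.28 in Mojave creosote and between -0.24 and 0.02 in Great Basin juniper. Of 10 Kupffer cell and macrophage markers 1 was lower, Cd14, the co-receptor for endotoxin, at -0.22, -0.19, -0.17 and -0.50 against 0.28, 0.48, 0.15 and 0.32. Its difference was -0.56 ± 0.11 (limma adjusted p = 0.00796), and a dimmer second Cd14 probe gave 0.04 ± 0.09. Cd14 was not called on the Cy5 channel alone (limma adjusted p = 0.633), in males only (0.057) or as the mean of its probes (0.0512). The means of both lists for Kupffer cells and for endothelium overlapped between the groups. Of 11 endothelial and of 9 neutrophil markers 1 each was higher, the endothelial one not without Great Basin juniper 4 or Mojave creosote 1. Limma called no cholangiocyte, lymphocyte or erythroid marker of 8, 10 and 5 tested, with 3, 0 and 0 at an unadjusted p under 0.05. Of 9 intestine markers 1 was lower (Krt20, -1.12 ± 0.17, limma adjusted p = 0.00177).

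Of the remaining lists, 3 of 17 clock genes were lower, Per2, Per3 and Hlf. Per3, a clock repressor like Per2, stood at -0.44, -0.70, -0.52 and -0.32 in Mojave creosote and at 0.22, 0.47, 0.22 and 0.25 in Great Basin juniper, a difference of -0.85 ± 0.17 (limma adjusted p = 0.00968). Hlf, a clock-controlled transcription factor, differed by -0.94 ± 0.21 (limma adjusted p = 0.0188), and its call was lost without Great Basin juniper 4 or Mojave creosote 1 (limma adjusted p = 0.0644 and 0.0502). The clock count was 1 in males only, without slide 1 and with the authors' ratios. The hour at which livers were taken is not given in the labels. Both amylase genes called, Amy2 and Amy1, were higher, with Amy1 at 1.51 ± 0.24 (limma adjusted p = 0.00209), and limma called no other of the 14 tested amylases and pancreatic digestive enzymes. On the Cy5 channel alone Amy1 was not called (limma adjusted p = 0.0799). Whether the probes of Amy1 and Amy2 bind separate woodrat transcripts was not examined. Ribosomal protein genes split evenly, 6 higher and 6 lower of 72, and with median centring 1 was higher and 12 lower. The 6 higher calls were 2 without Great Basin juniper 3 and 0 without slide 1. Of 58 oxidative phosphorylation genes 1 was higher and 1 lower, Atp5o at 0.44 ± 0.11 and Atp5s at -0.37 ± 0.08, both of the ATP synthase (limma adjusted p = 0.0297 and 0.0129). Neither was called without Great Basin juniper 4 (limma adjusted p = 0.113 and 0.0753), and Atp5o was also not called without Great Basin juniper 1 or 3 or Mojave creosote 1, 2 or 4 (limma adjusted p from 0.0507 to 0.0999). Of 14 tested genes that differ between the sexes in rodent liver 1 was higher and 2 lower in the sex-adjusted fit. Of the lower ones 1 was not called without any 1 of 13 animals. The higher gene was Fmo1, a flavin monooxygenase that oxidises foreign compounds, at 1.61 ± 0.30 (limma adjusted p = 0.0064). The list of 16 p53 targets and growth arrest genes also holds Myc, which promotes growth. Of its genes 3 were higher, Myc among them, and 2 lower. Without Great Basin juniper 4 none of them was higher by limma and 2 were lower. The higher count was 1 without Great Basin creosote 2, Great Basin juniper 1, 2 or 3, or any 1 Mojave juniper animal. Of 26 genes of the interleukin-1 and NF-kappaB pathway 2 were higher, Il1r2 among them, and 2 lower, and the lower ones were not called without Great Basin juniper 3. The higher count was 1 without Great Basin juniper 1 or 4 or Mojave creosote 3. Of 25 genes of the growth hormone and IGF axis 2 were higher, Fst and 1 that was not called without Great Basin juniper 3 or 4. Of 19 genes of endoplasmic reticulum stress 1 was lower, which was not called without Great Basin juniper 4 or Mojave creosote 2. Limma called none of 19 proliferation genes, 18 genes for metal and iron handling or 13 for bile acid synthesis and conjugation, with 0, 3 and 3 at an unadjusted p under 0.05.

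Whether these differences went with the plant was examined in the exchanged-diet animals, 8 animals that share no array with the native comparison. The pool, the sex term and the estimate of the spread are common to both. On every slide Great Basin creosote sat at position 1, Mojave creosote at 2, Mojave juniper at 3 and Great Basin juniper at 4. Both creosote groups thus had lower position numbers than both juniper groups. Plant and position therefore cannot be told apart in either comparison, nor in the diet effect. Both Mojave groups sat at the inner positions 2 and 3 and both Great Basin groups at the outer positions 1 and 4. Population and position therefore cannot be told apart in the population effect either. There, 1890 genes (7.14%) differed between Great Basin creosote and Mojave juniper, 945 higher and 945 lower on creosote (3.57% each). Of the 1356 genes called on the native diets, 1243 (91.7%) had the same sign in the exchanged-diet animals, against 60.1% of the genes not called. Of the same 1356 genes, 625 were called with the same sign in both, which is 46.1% of the native calls and 33.1% of the exchanged calls. Averaged over the populations, the diet effect was called in 3206 genes (12.1%), and averaged over the diets, the population effect in 9 genes (0.034%), 1 higher and 8 lower in Mojave, with 2466 at an unadjusted p under 0.05. Limma called no interaction of population and diet, with 3441 genes at an unadjusted p under 0.05.

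In 1062 of the 1356 genes called on the native diets (78.3%) the difference was smaller in size on the exchanged diets; the genes were chosen by the native difference. Some of the leading genes had a like size in both sets of animals. Il1r2 differed by 3.18 on the native and 3.32 ± 0.33 on the exchanged diets, Elovl6 by 2.52 and 2.68 ± 0.27, Baz2a by 1.45 and 1.59 ± 0.10, and Asf1a by -1.37 and -1.38 ± 0.08. Cyp2b15 differed by -1.55 and -1.88 ± 0.28 and Cyp3a3 by -1.24 and -1.44 ± 0.17. These are differences of creosote from juniper animals in both cases, whatever the population. The proteasome list had 26 lower calls on the native and 31 on the exchanged diets, with medians of -0.55 and -0.63. P450s of families 1 to 3 had 10 and 13 lower calls, heat shock proteins and chaperones 5 and 12, and the urea cycle and amino acid catabolism 8 and 10 higher calls. The clock list had 3 lower calls on the native and none on the exchanged diets, where Per2 differed by -1.19 ± 0.36 (limma adjusted p = 0.0584). Per3 differed there by -0.33 ± 0.16 and Hlf by -0.54 ± 0.20 (limma adjusted p = 0.265 and 0.125), the same sign as on the native diets. The population effect passed the threshold for none of Per2, Per3 and Hlf (limma adjusted p = 0.851, 0.516 and 0.723).

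Other genes were far apart on the native diets and not called on the exchanged ones. Bex4 differed by 3.81 on the native and 0.20 ± 0.56 on the exchanged diets. In the exchanged-diet animals it stood at -1.77, -1.70, -0.89 and 1.53 in Great Basin creosote and at -0.73, -1.32, -0.79 and -0.79 in Mojave juniper. A single Great Basin creosote animal was therefore high while the 3 others were as low as or lower than Mojave juniper. Ddit4 differed by 1.89 and 0.36 ± 0.30, Acmsd by 2.12 and 0.70 ± 0.26, and Ssfa2 by -1.83 and 0.01 ± 0.44. Myc changed sign, at 1.97 on the native and -1.21 ± 0.40 on the exchanged diets (limma adjusted p = 0.089 for the second). For none of these genes did the population effect, which is the test of a native difference unlike the exchanged one, pass the threshold. Its limma adjusted p was 0.125 for Bex4, 0.255 for Ddit4, 0.22 for Acmsd, 0.369 for Ssfa2 and 0.073 for Myc. The same holds for G6pc (2.20 against 0.83 ± 0.22, limma adjusted p = 0.134) and Scd2 (2.05 against 0.94 ± 0.15, limma adjusted p = 0.0812).

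**Figure D4:**
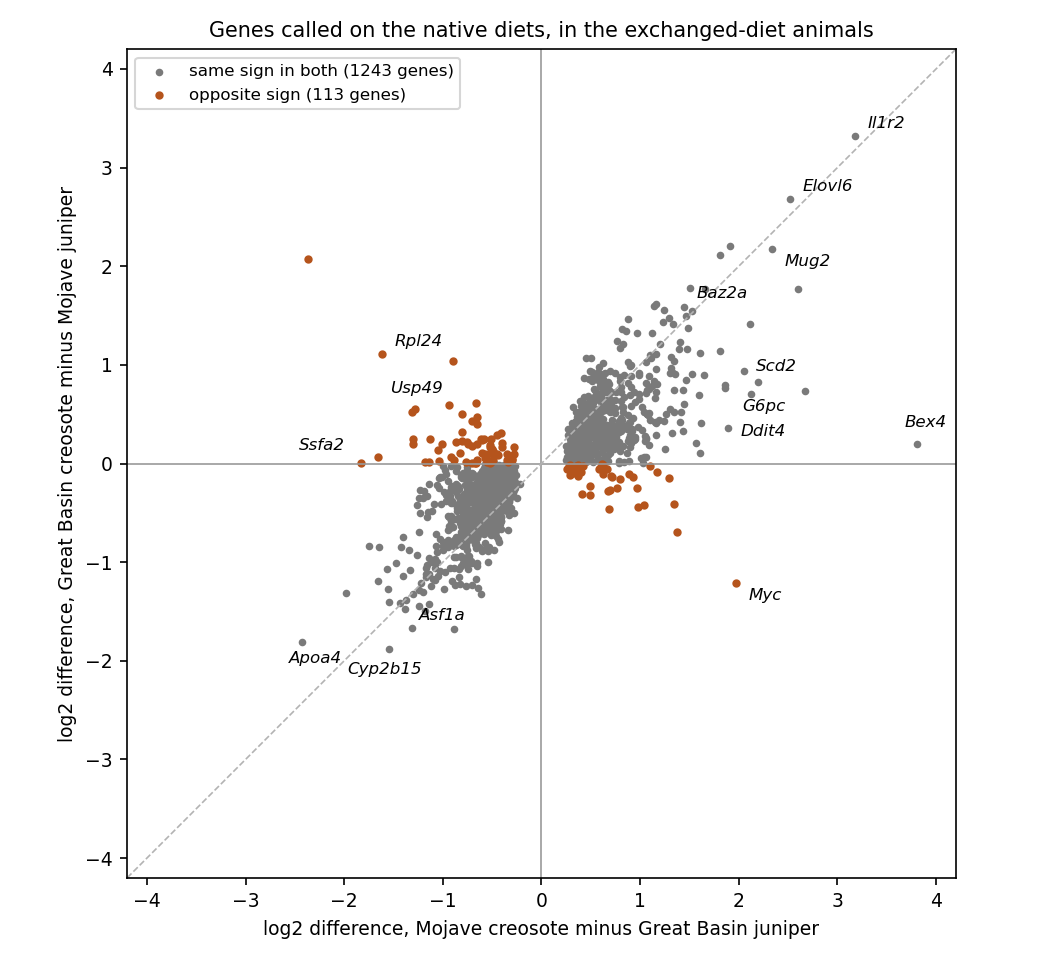
Each point is 1 of the 1356 genes called on the native diets; the horizontal axis is the log2 difference of Mojave creosote minus Great Basin juniper and the vertical axis that of Great Basin creosote minus Mojave juniper, in animals that share no array with the first. The dashed line marks equal differences: 1243 genes lie in the quadrants of equal sign and 113 in the others, and the band without points around 0 on the horizontal axis is set by the choice of called genes.

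A few genes went with the population, which cannot be told apart from inner and outer position on the slide. Of the genes called on the native diets, 113 had the opposite sign on the exchanged diets and 6 were called with opposite signs. Usp49, which removes ubiquitin from proteins, stood at -0.25, -0.15, 0.06 and -0.28 in Mojave creosote and at 0.26, 0.82, 0.97 and 0.59 in Great Basin juniper. In the exchanged-diet animals it stood at -0.02, -0.11, -0.43 and -0.06 in Mojave juniper and at 0.55, 0.65, 0.13 and 0.41 in Great Basin creosote. All 8 Great Basin animals were above all 8 Mojave animals. The difference was -0.94 ± 0.14 on the native and 0.59 ± 0.13 on the exchanged diets, and the population effect was -0.77 in Mojave relative to Great Basin (limma adjusted p = 0.00971).

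Rpl24, a protein of the large ribosomal subunit, stood at -0.54, -0.44, -0.32 and -0.84 in Mojave creosote and at 0.52, 0.75, 1.13 and 1.46 in Great Basin juniper. In the exchanged-diet animals it stood at -0.77, 0.44, -0.74 and -0.77 in Mojave juniper and at 0.73, 0.08, 0.85 and 0.94 in Great Basin creosote. Mojave juniper 2 was thus unlike the other 7 Mojave animals and within the Great Basin range. The difference was -1.62 ± 0.28 on the native and 1.11 ± 0.26 on the exchanged diets, with a population effect of -1.37 (limma adjusted p = 0.0234). Sntb1, a syntrophin, differed by -0.66 ± 0.17 on the native and 0.61 ± 0.16 on the exchanged diets, and its native call was lost without Great Basin juniper 1 or 3 or Mojave creosote 1, 2 or 4 (limma adjusted p from 0.0501 to 0.152). The population effect on Sntb1 was not past the threshold (limma adjusted p = 0.073). Sntb1 was also not called in males only, on the Cy5 channel alone or without slide 1. Without slide 1 the native call on Rpl24 was lost (limma adjusted p = 0.077). Sequence differences between the populations at the rat probes were not examined, and their part in these values was not tested.

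Of the 9 genes with a population effect, 6 had a symbol: Usp49, Rpl24, Mpg, Bhmt, Ppap2b and Gpr116. Mpg, a DNA glycosylase that removes alkylated bases, was lower in Mojave creosote than in Great Basin juniper by -0.51 ± 0.09 (limma adjusted p = 0.00406) and by -0.47 ± 0.08 at a second probe, with a population effect of -0.38 (limma adjusted p = 0.0487). Its native call was lost with the authors' ratios (limma adjusted p = 0.0631), on the Cy5 channel alone (0.0669) and without slide 1 (0.077). Bhmt, which remakes methionine from homocysteine with betaine, had another pattern. It was not called on the native diets, at 0.17 ± 0.17 with 1 Mojave creosote value left out (limma adjusted p = 0.69). On the exchanged diets it differed by 2.04 ± 0.15 (limma adjusted p = 1.05e-05), at 0.96, 1.02, 1.43 and 1.19 in Great Basin creosote and at -0.57, -1.02, -1.08 and -0.88 in Mojave juniper. Its second probe gave 0.13 ± 0.07 on the native diets and 0.17 on the exchanged ones.

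**Figure D5:**
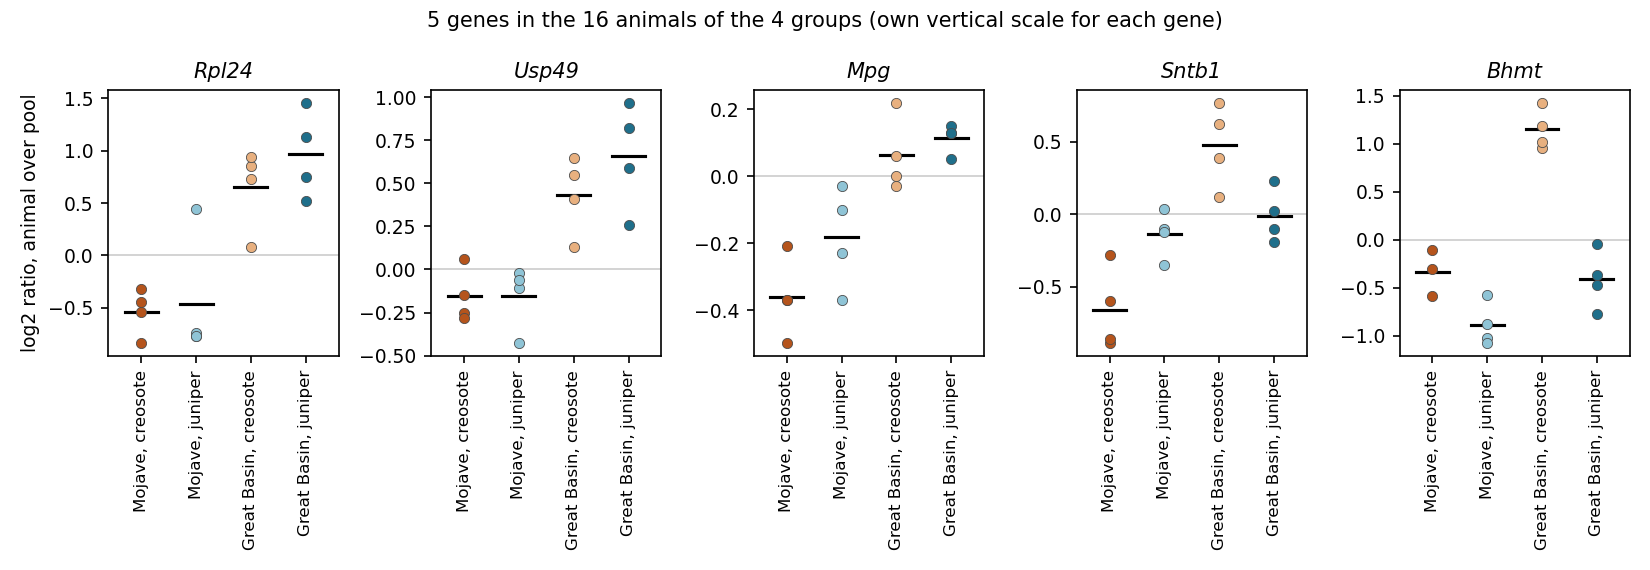
Log2 ratio of each animal over the pool for 5 genes, with 4 animals per group as points, group means as bars and a vertical scale of its own for each gene. Usp49 separates the 8 Great Basin from the 8 Mojave animals, Rpl24 does so with the exception of Mojave juniper 2, and Bhmt is high in Great Basin creosote alone.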

How the data were processed

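Liver RNA of 16 woodrats was hybridised to 2-colour Agilent rat arrays, per the labels, with the single animal in Cy5 and an equimolar pool of all 16 in Cy3, and no dye swap. The authors deposited scanner intensities from Agilent Feature Extraction 9.1.3.1, per the submitters' processing notes, and a table of log2 ratios of the processed signals, used here as an alternative. In R 4.3.3 with limma 3.58.1, mean and background intensities were corrected with normexp (offset 50), normalised by loess and averaged per probe. Control spots and outlier spots were left out. Probes well above background in Cy5 on at least 4 of 16 arrays, with 2 values per group, were kept, and the brightest kept probe stood for a gene.

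One limma model over 16 arrays held 4 group means and an additive sex term, with Benjamini-Hochberg adjustment over 26472 genes and a threshold of 0.05. Differences are therefore sex-adjusted and need not equal the difference of the group means, and ± after a difference is its standard error. The script was tested on simulated data. Rat probes may bind woodrat transcripts unevenly, so levels are compared within a probe only. The number of arrays limits the precision. In the native comparison, animals of the same replicate number shared a slide. After group means were removed, the correlations of these same-numbered animals were 0.10, -0.08, 0 and -0.03 for numbers 1 to 4. These values show little pairing, and number and slide cannot be told apart in them.

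Named genes had a symbol, were called and did not overlap between the groups, and were the 12 largest differences in each direction and the smallest p in each direction. Added to these were up to 4 called members of each gene list by p, called genes of opposite sign on the exchanged diets, and, chosen after their values were seen, the genes with a population effect. The members and lists were chosen with earlier results of these data known. Alternatives covered offset, normalisation, probe filter, sex, slide, replicate block and each animal left out. Some genes that the rule names are not reported here. Sequences were not used here. Figures were drawn with matplotlib 3.10.9.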

Additional observations from a re-analysis of the deposited data

Results flagged for a closer look

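In 8 of 163 sets of 4 animals tested over the named genes, 1 animal stood apart from the other 3 of its group by Dixon's ratio of gap to range, whose critical value for 4 animals is 0.829. Most of these genes were chosen for small p or separate groups in the same animals, so no chance rate can be set beside this number. Gys2 stood apart in both native groups: Mojave creosote 3 was at 0.01 with the others at -0.89 to -0.83 (ratio 0.929), and Great Basin juniper 1 at -0.05 with the others at 0.62 to 0.69 (ratio 0.906). These 2 animals are the ones by which the groups overlap. Per3 was at 0.47 in Great Basin juniper 2 and at 0.22 to 0.25 in the others (ratio 0.872). Gsr was at 0 in Great Basin juniper 3, with the others at 0.20 to 0.22 (ratio 0.901). Cd14 was at -0.50 in Mojave creosote 4 and at -0.22 to -0.17 in the others (ratio 0.829). Gpr116 was at -0.01 in Mojave creosote 3 and at -0.20 to -0.18 in the others (ratio 0.908). Sgk, a kinase induced by steroid hormones, was at 1.87 in Mojave creosote 3 and at 0.31 to 0.54 in the others (ratio 0.85). Mbl1 was at 0.85 in Mojave creosote 2 and at -0.03 to 0.04 in the others (ratio 0.922).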

How the results depend on the processing

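The 1356 genes called on the native diets were 2544 with median centring (389 higher and 2155 lower), 782 with the authors' log2 ratios, 560 on the Cy5 channel alone, 518 in male animals only and 390 without slide 1. Leaving out 1 animal gave 707 (without Great Basin juniper 4) to 1568. The 1890 genes of the exchanged diets were 204 in male animals only, 584 without slide 1, and 1156 to 2121 with 1 animal left out. The cause of these changes was not tested, other than that males only and slide 1 leave fewer arrays. With the replicate number as a block the counts were 1260 and 1675, although same-numbered native animals were hardly correlated. Replicate number and slide went together in all groups but Great Basin creosote. The exchanged fit on its own 8 arrays, added after seeing the data, gave 1729. Of 111 named genes called, 38 kept the call under every other setting and 71 without each single animal. Values changed sign for Bhmt (-0.18 with median centring and -0.08 on the Cy5 channel), Ambp (-0.14 on the Cy5 channel) and Atp5o (-0.03 on the Cy5 channel). Brightness limits what can be seen: on slide 1, 49.2% of probes were well above background, and Cyb5 and Ambp were saturated on all Great Basin juniper arrays.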

Other observations

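A list of 25 glucocorticoid-induced genes was drawn up after values had been seen, so its count supports nothing and is given as a description. In Mojave creosote 8 were higher than in Great Basin juniper and 1 lower, beside 2.17% and 2.95% of all genes, and on the exchanged diets 4 were higher and 2 lower on creosote. Klf15, a transcription factor of amino acid breakdown, stood at 0.90, 0.57, 0.38 and 0.36 in Mojave creosote and at -0.35, -0.36, -0.92 and -0.71 in Great Basin juniper. Tsc22d3, an anti-inflammatory regulator, stood at 0.86, 1.37, 0.34 and 0.29 against -0.55, -0.62, -1.10 and -1.02. The groups were apart in both genes. The differences were 1.16 ± 0.17 for Klf15 and 1.61 ± 0.29 for Tsc22d3 on the native diets (limma adjusted p = 0.00131 and 0.0043), and 0.73 ± 0.16 and 0.10 ± 0.26 on the exchanged ones. The population effect passed the threshold for neither gene (limma adjusted p = 0.598 and 0.191). Without slide 1 the call on Tsc22d3 was lost (limma adjusted p = 0.0736), and a second Tsc22d3 probe gave 0.35 ± 0.15. Other genes often placed on such lists were not called, among them Fkbp5 at 0.10 ± 0.17 and Per1 at -0.15 ± 0.13 (limma adjusted p = 0.84 and 0.633). Sgk was higher by 1.44 ± 0.34 (limma adjusted p = 0.0247), and not called without Great Basin juniper 3 (limma adjusted p = 0.111). The call on Sgk was also lost in males only and with median centring (limma adjusted p = 0.153 and 0.0643). On the exchanged diets Sgk differed by 0.33 ± 0.32 (limma adjusted p = 0.64).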
